A study of Haemaphysalis flava with 2 samples.

Results

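Neprilysin-like and exopeptidase contigs were compared between salivary glands of engorged and of semi-engorged Haemaphysalis flava, a blood-feeding hard tick. Members were taken by name, as contigs whose best-matching protein was called a neprilysin, an endothelin-converting enzyme, an M13 family peptidase, a carboxypeptidase, an aminopeptidase or a dipeptidyl peptidase. This gave 103 of 54357 contigs, or 0.511% of the 20145 with a description. The words angiotensin-converting, astacin and tolloid were searched as well, and 0 contigs carried them, so those enzyme groups are without a member here. Dissected glands from 50 engorged and 50 semi-engorged ticks, 100 glands in all according to the series text, gave 1 polyadenylated RNA library per stage. The engorged library held 57892372 reads on contigs and the semi-engorged library 54039984. No difference below has a replicate check, no p-value was computed, and each value describes these libraries only.

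Neprilysin and its relatives of the M13 family are zinc endopeptidases, mostly anchored in the cell membrane with the active site outside. They cut short signalling peptides, and in mammals their substrates include bradykinin, substance P and endothelin. Exopeptidases remove residues from peptide ends: aminopeptidases and dipeptidyl peptidases work from the amino end and carboxypeptidases from the carboxyl end. Tick saliva is delivered into the bite, where the host forms peptide mediators of pain, swelling and inflammation.

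The 103 members named 60 different best-matching proteins, and 63 members shared a best match with at least one other member. Contigs that share a best match can be pieces of 1 transcript, variants or close copies of a gene. Their reads may have been split between them by the counting, so their separate counts are uncertain. Best matches came from ticks for 100 members, 68 of them in Rhipicephalus, 28 in Ixodes, 3 in Haemaphysalis and 1 in Amblyomma. The remaining 3 matched a bacterium, an oyster and a nematode. The median contig was 951 bases long, the shortest 308 and the longest 7702.

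All members together held 0.209% of the reads from engorged glands (0.208% to 0.210%, Wilson 95% interval) and 0.283% of those from semi-engorged glands (0.282% to 0.284%). Calls were made on the log2 fold of CPM (reads per 1000000 library reads) after adding 1, at a size of 1 or more, which is a 2-fold difference. Of 93 members with at least 20 reads over both libraries, 14 (15.1%) were higher in engorged glands, where 13% of all 47965 tested contigs were. In the semi-engorged library 10 members (10.8%) were higher, where 15.5% of all tested contigs were. The median log2 fold of the tested members was 0.029 (order-statistic 95% interval -0.18 to 0.15), beside -0.049 over all tested contigs and 0.012 over the tested described ones. By these values over all tested contigs, the members as a whole were near this background. Contigs with more reads are compared at the end of this paragraph, and the paragraphs after it give single enzymes and subgroups. These 14 calls in engorged and 10 in semi-engorged glands turned into 12 and 16 once the median log2 ratio, taken over contigs that have 100 reads or more in each library, was set to 0, which shifted the median of all tested contigs to -0.17 and their called shares to 10.7% higher in engorged and 18.5% in semi-engorged glands. They turned into 18 and 8 with totals that omit the 50 most abundant contigs, where 18.1% of all tested contigs were higher in engorged and 16.2% in semi-engorged glands. Of the 69 members not called, 21 were below 1 CPM in both libraries and could not reach that size with 1 CPM added. Among described contigs the background was 15.4% higher in engorged and 16.6% higher in semi-engorged glands. With at least 1 CPM in a library, 19.4% of 72 members were higher in engorged and 13.9% in semi-engorged glands, beside 19.8% and 23.5% of all such contigs. With 100 reads or more in both libraries, the median log2 fold of 55 members was -0.087 (-0.49 to 0.18). Over all 17032 such contigs it was 0.20 (0.19 to 0.22). Of these 55 members, 8 were higher in engorged and 8 in semi-engorged glands, beside 3571 and 2374 of the 17032 contigs. At a log2 fold of 2 or more, 4 members were higher in engorged and 3 in semi-engorged glands, where 3.68% and 6.72% of all tested contigs were.

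The classes did not take their reads alike. Neprilysin and M13 contigs held 0.0674% of reads in engorged glands (0.0667% to 0.0680%) and 0.0554% in semi-engorged glands (0.0548% to 0.0561%). Dipeptidyl peptidases took 0.0562% in engorged (0.0555% to 0.0568%) and 0.130% in semi-engorged glands (0.129% to 0.131%). Carboxypeptidases stood close, at 0.0311% in engorged (0.0307% to 0.0316%) and 0.0294% in semi-engorged glands (0.0290% to 0.0299%). Aminopeptidases took 0.0546% in engorged (0.0540% to 0.0552%) and 0.0678% in semi-engorged glands (0.0671% to 0.0685%). Without the pair of tick salivary dipeptidyl peptidase contigs, the engorged share over the semi-engorged share was 0.961, beside 0.739 with them.

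**Figure D1:**
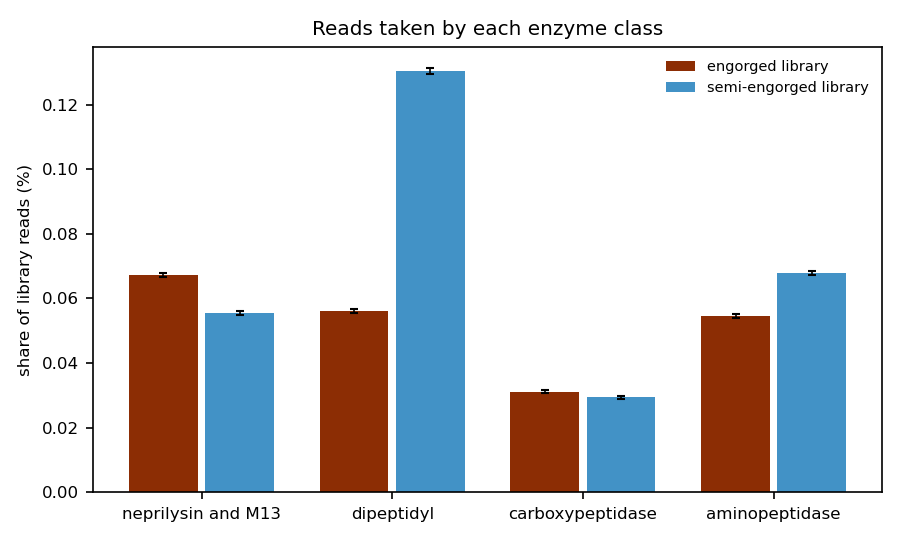
Share of library reads, in percent, taken by each enzyme class in the engorged (brown, left) and semi-engorged (blue, right) library, with Wilson 95% intervals as error bars. Dipeptidyl peptidases stand at 0.0562% in engorged and 0.130% in semi-engorged glands, and the other classes lie closer together.

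The members with the highest RPKM in both libraries were the 2 contigs named tick salivary dipeptidyl peptidase, both lower in engorged glands. Dipeptidyl peptidases release residue pairs from the amino end of peptides, and the name of the match does not say which family of them is meant. Contig_538 had 21839 reads in engorged glands and 50095 in semi-engorged glands, on 1227 bases. It was 2.46-fold lower in engorged glands (95% interval 2.42 to 2.50). Contig_1266 had 5317 reads in engorged and 11530 in semi-engorged glands, on 420 bases, and was 2.32-fold lower (2.25 to 2.40). The log2 folds were -1.29 and -1.21, so these contigs of the same best match differed alike. For contig_1266 the log2 fold went to -0.99, short of a call, under totals that omit the 50 most abundant contigs.

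Per length, contig_538 stood at 307 RPKM in engorged and 756 RPKM in semi-engorged glands, and contig_1266 at 219 RPKM in engorged and 508 RPKM in semi-engorged glands. No other member came above 145 RPKM in the engorged or 81.2 RPKM in semi-engorged glands. Among all contigs, contig_538 ranked 360 by RPKM in engorged and 216 in semi-engorged glands. The pair took 22.4% of all member reads in engorged glands (22.2% to 22.6%) and 40.3% in semi-engorged glands (40.0% to 40.5%).

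The other 3 dipeptidyl peptidases lay much lower and did not all differ in one direction. Contig_2914, whose best match is named dipeptidylpeptidase 3, a cytosolic zinc enzyme in mammals, had 1934 reads in engorged and 4018 in semi-engorged glands. It was 2.23-fold lower in engorged glands (2.11 to 2.35), and its log2 fold of -1.13 went to -0.92 under totals that omit the 50 most abundant contigs. Contig_2609 had 3054 reads in engorged and 4550 in semi-engorged glands, a log2 fold of -0.66. Contig_7094 had 369 reads in engorged and 213 in semi-engorged glands, a log2 fold of 0.58. In all, 3 of 5 dipeptidyl peptidases were called, each of them lower in engorged glands, and the median log2 fold was -1.13. Of all tested contigs, 15.5% were called lower in engorged glands. Under totals that omit the 50 most abundant contigs 1 of the 5 was called, contig_538.

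**Figure D2:**
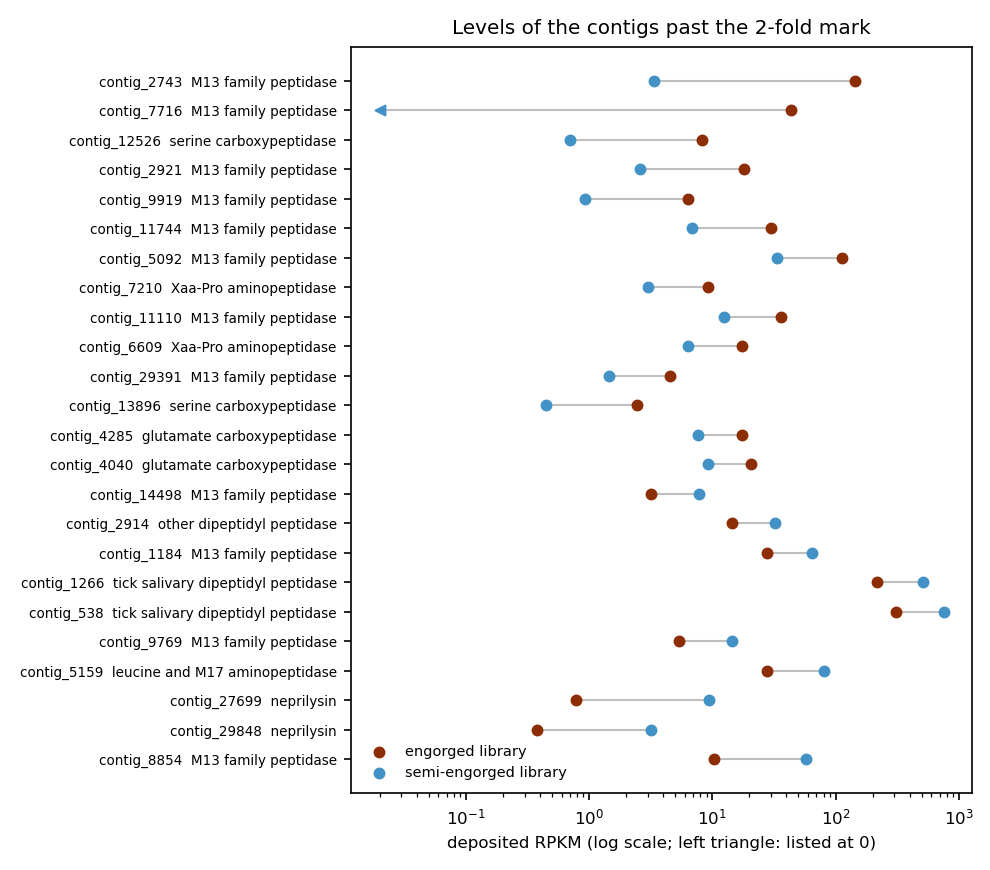
Deposited RPKM on a log axis for the 24 members past a log2 fold of 1 in size, each as a brown point for the engorged library and a blue point for the semi-engorged library, sorted by log2 fold. The pair of tick salivary dipeptidyl peptidase contigs lies farthest right among the members lower in engorged glands, and contig_7716 is listed at 0 in semi-engorged glands (triangle).

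With 1 CPM added, M13 peptidases held the largest log2 folds of the members in both directions. The neprilysin and M13 class held 47 contigs: 32 named M13 family peptidase, 8 named endothelin-converting enzyme and 7 named neprilysin. Of 43 tested, 8 (18.6%) were higher in engorged glands and 6 (14.0%) in semi-engorged glands, where 13% and 15.5% of all tested contigs were. The median log2 fold of these 43 contigs was -0.087 (-0.53 to 0.21). Their log2 folds ran from -2.40 to 5.17, the widest spread of the classes. The counts were 8 in engorged and 10 in semi-engorged glands when the median ratio was set to 0. With that setting 10.7% of all tested contigs were higher in engorged and 18.5% in semi-engorged glands.

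Contig_2743, an M13 family peptidase of 1565 bases, had 13095 reads in engorged glands and 286 in semi-engorged glands. It was 42.7-fold higher in engorged glands (38.0 to 48.2), with 1 CPM added the largest log2 fold of all tested members at 5.17. With 0.1 CPM added, contig_7716 had a larger one, 8.12 beside 5.39 for contig_2743. The level of contig_2743 was 145 RPKM in engorged and 3.38 RPKM in semi-engorged glands, which gave it rank 3 among the members by RPKM in engorged and rank 45 in semi-engorged glands. This contig took 33.6% of the reads of its class in engorged glands (33.1% to 34.0%), against 0.955% in semi-engorged glands (0.851% to 1.07%). Without it, the class's engorged share over its semi-engorged share was 0.815, beside 1.22 with it, so the side of the class sum rested on this contig.

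Contig_7716 shared its best match with contig_2743 and had 1606 reads in engorged glands and 0 in semi-engorged glands. With 0 reads set to 3, it was at least 499.7-fold higher in engorged glands, and the exact 95% interval reached down to 406-fold. The same best match was given for 8 contigs in all, 6 of which were higher in engorged glands, where 13% of all tested contigs were. Contig_2921 had 649 reads in engorged and 87 in semi-engorged glands (6.96-fold higher, 5.56 to 8.81). Contig_9919 had 339 reads in engorged and 46 in semi-engorged glands (6.88-fold higher, 5.04 to 9.58). Contig_11744 had 968 reads in engorged and 207 in semi-engorged glands (4.37-fold higher, 3.75 to 5.10), and contig_11110 had 1492 reads in engorged and 478 in semi-engorged glands (2.91-fold higher, 2.63 to 3.24). With 10 CPM added, contig_2921 (log2 fold 0.87), contig_9919 (0.55), contig_11744 (0.95) and contig_11110 (0.92) were no longer called, while contig_2743 and contig_7716 were.

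Not all contigs of that best match differed in one direction. Contig_1184 had 1922 reads in engorged and 4153 in semi-engorged glands and was 2.31-fold lower (2.19 to 2.44), and its log2 fold of -1.19 went to -0.98 under totals that omit the 50 most abundant contigs. Contig_23077 had 1095 reads in engorged and 1535 in semi-engorged glands, a log2 fold of -0.56, not called. The log2 folds of these 8 contigs therefore spanned 6.36, from -1.19 to 5.17. Outside this set, 2 of 35 tested contigs of the class were higher in engorged glands and 5 in semi-engorged glands, with a median of -0.37 (-0.68 to 0.18). Over all tested contigs the called shares were 13% and 15.5%. The set was singled out for contig_2743, which was high in engorged glands, so a lower remainder follows in part from that choice.

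**Figure D3:**
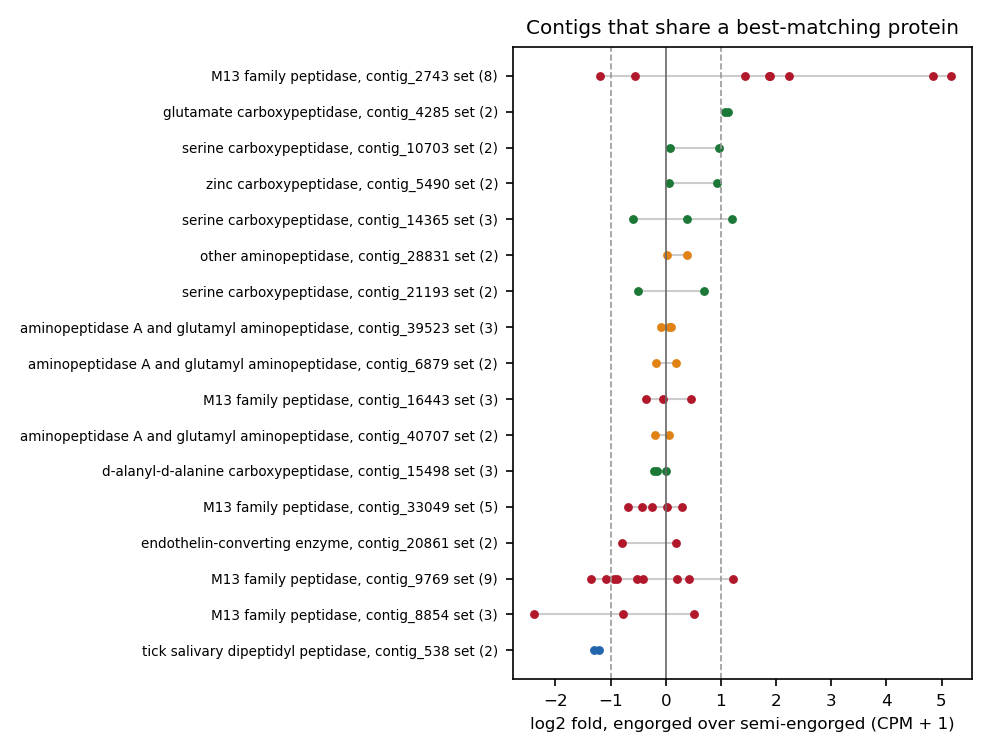
Log2 fold of CPM + 1, engorged over semi-engorged, for each tested contig in the 17 sets of at least 2 tested contigs that share a best-matching protein, 1 row per set, named by its enzyme and its contig with most engorged reads. Dashed lines mark a log2 fold of 1 and -1. The contig_2743 set spans -1.19 to 5.17, whereas the contigs of the tick salivary dipeptidyl peptidase set lie together.

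A second best match covered 9 M13 contigs, led by contig_9769. Contig_9769 had 674 reads in engorged and 1694 in semi-engorged glands and was 2.69-fold lower (2.46 to 2.95). Contig_14498 had 183 reads in engorged and 421 in semi-engorged glands (2.46-fold lower, 2.07 to 2.95), and its log2 fold of -1.08 was -0.94 under totals that omit the 50 most abundant contigs. Contig_29391 went the other way, with 295 reads in engorged and 87 in semi-engorged glands (3.17-fold higher, 2.48 to 4.07). With 10 CPM added none of these was called, at log2 folds of -0.93 for contig_9769, -0.43 for contig_14498 and 0.38 for contig_29391. The other 6 contigs of this set were not called, and the median of the 9 was -0.52 (-1.08 to 0.42). Of the 17 sets with at least 2 tested contigs, these 2 M13 sets had calls in both directions, 4 had calls in one direction and 11 had none.

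Contig_8854, another M13 family peptidase, was the member with the largest log2 fold on the semi-engorged side with 1 CPM added. It had 845 reads in engorged and 4379 in semi-engorged glands, 5.55-fold lower in engorged glands (5.16 to 5.98), with levels of 10.3 RPKM in engorged and 57.2 RPKM in semi-engorged glands. Members with fewer reads had larger CPM ratios, among them the neprilysins contig_29848 (8.44-fold lower) and contig_27699 (12.0-fold lower). With 0.1 CPM added the log2 fold was -2.98 for contig_29848 and -2.46 for contig_8854. The other contigs of the contig_8854 best match were small, with 34 reads in engorged and 93 in semi-engorged glands for contig_26301 and 25 reads in engorged and 0 in semi-engorged glands for contig_40625. Contig_5092, the only member with its best match, had 3186 reads in engorged and 895 in semi-engorged glands on 491 bases. It was 3.32-fold higher in engorged glands (3.08 to 3.58), and at 112 RPKM in engorged and 33.7 RPKM in semi-engorged glands it ranked 4 among members by RPKM in engorged and 9 in semi-engorged glands.

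The 2 longest contigs named M13 family peptidase were not called. Contig_6990, of 4653 bases, had 5722 reads in engorged and 5676 in semi-engorged glands, a log2 fold of -0.087. Contig_3909, of 2496 bases, had 2743 reads in engorged and 4640 in semi-engorged glands, a log2 fold of -0.84 that reached -1.08 when the median ratio was set to 0. Per length they stood at 21.2 RPKM in engorged and 22.6 RPKM in semi-engorged glands and at 19.0 RPKM in engorged and 34.4 RPKM in semi-engorged glands.

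Contigs named neprilysin were few and mostly at low levels. Of 5 tested, 0 were higher in engorged glands and 2 in semi-engorged glands, where 13% and 15.5% of all tested contigs were. Both calls were lost with 10 CPM added, at log2 folds of -0.89 for contig_29848 and -0.61 for contig_27699. Contig_29848 had 75 reads in engorged and 591 in semi-engorged glands, 8.44-fold lower in engorged glands (6.63 to 10.9). Contig_27699 had 29 reads in engorged and 326 in semi-engorged glands, 12.0-fold lower (8.23 to 18.3). Contig_32890, whose best match is a nematode neprilysin, had 7 reads in engorged and 62 in semi-engorged glands, 9.49-fold lower (4.34 to 24.6). With 1 CPM added to these low values its log2 fold was -0.94, just short of a call. Contig_6501 had the most reads of the neprilysins, 707 in engorged and 976 in semi-engorged glands, and its best match is a bacterial protein.

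Endothelin-converting enzymes, which in mammals release endothelin from its precursor, had 0 calls in either direction among 6 tested contigs. Of all tested contigs, 13% were higher in engorged and 15.5% in semi-engorged glands. The 2 with most reads stood close between the libraries. Contig_17275 had 432 reads in engorged and 365 in semi-engorged glands, a ratio of 1.10 (0.959 to 1.27). Contig_20861 had 399 reads in engorged and 322 in semi-engorged glands, a ratio of 1.16 (0.996 to 1.34). Both intervals include 1, so no difference was detectable at this depth. Among the small ones, contig_13775 had 24 reads in engorged and 2 in semi-engorged glands, a ratio of 11.2 (2.78 to 97.8), and contig_54613 had 0 reads in engorged and 40 in semi-engorged glands, at least 14.3-fold lower in engorged glands with 0 reads set to 3 (11.1-fold at the lower limit of the exact 95% interval). Both were below 1 CPM in each library and could not be called with 1 CPM added. Contig_54613 lies among the 6017 contigs with the highest contig numbers. The start of this range was chosen to best separate contigs with 0 engorged reads from the rest. That choice favours the 65.7% of these contigs that had no engorged read.

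**Figure D4:**
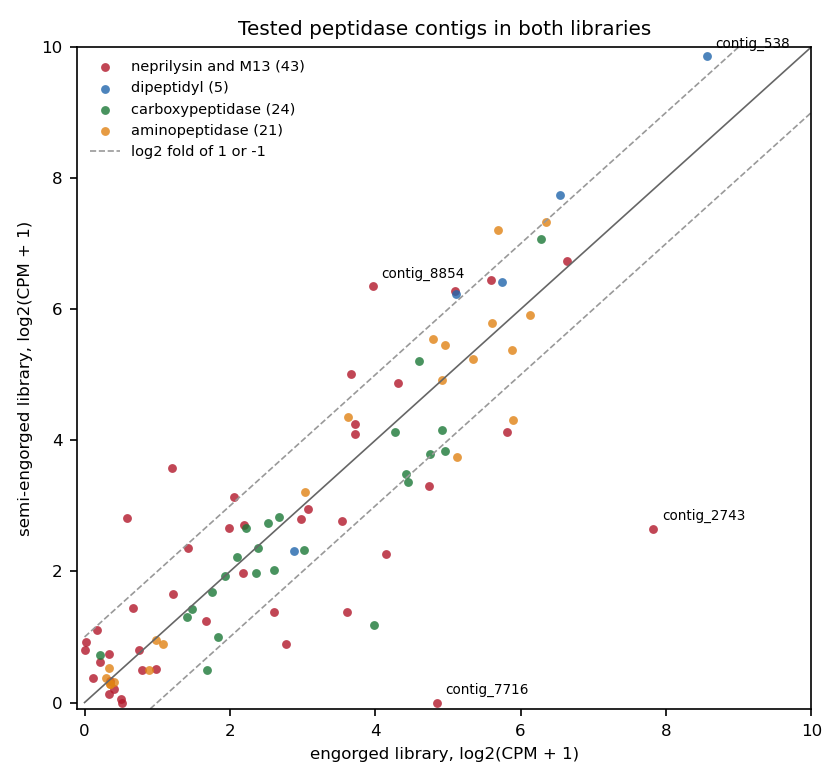
Log2 of CPM + 1 in engorged glands (horizontal) against the semi-engorged library (vertical) for the 93 tested members, coloured by class, with the line of equality and dashed lines at a log2 fold of 1 and -1. Contig_2743 and contig_7716 lie far to the engorged side and contig_8854 to the semi-engorged side, and most carboxypeptidases and aminopeptidases lie between the dashed lines.

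Of 24 tested carboxypeptidases, 4 (16.7%) were higher in engorged and 0 in semi-engorged glands, where 13% and 15.5% of all tested contigs were. The share on the engorged side was near that background. Their median log2 fold was 0.13 (-0.11 to 0.84). With the median ratio set to 0 the counts were 2 in engorged and 1 in semi-engorged glands and the median turned to -0.052. With totals that omit the 50 most abundant contigs the counts were 7 and 0 and the median was 0.32. All tested contigs then had 18.1% higher in engorged and 16.2% in semi-engorged glands. Serine carboxypeptidases, acid enzymes of lysosomes and secretions that remove the last residue of a chain, gave 2 of the 4 calls. Contig_12526 had 857 reads in engorged and 69 in semi-engorged glands, 11.6-fold higher (9.07 to 15.0). Contig_13896 had 129 reads in engorged and 22 in semi-engorged glands, 5.47-fold higher (3.46 to 9.04), but with 10 CPM added its log2 fold was 0.23, not called. Contig_14365, with the same best match as contig_13896, had 1351 reads in engorged and 1938 in semi-engorged glands, a log2 fold of -0.60. Of 11 tested serine carboxypeptidases, some of which share a best match, 9 had a log2 fold above 0. Of all 47965 tested contigs 22880 did, and of the 17032 with 100 reads or more in both libraries 9991 did. With the median ratio set to 0, 6 of the 11 did, and 9 did with totals that omit the 50 most abundant contigs.

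Glutamate carboxypeptidases, which in mammals free glutamate from folate and from a brain dipeptide, gave the other 2 calls. Contig_4285 had 1747 reads in engorged and 719 in semi-engorged glands (2.27-fold higher, 2.08 to 2.48). Contig_4040, of the same best match, had 1206 reads in engorged and 503 in semi-engorged glands (2.24-fold higher, 2.02 to 2.49). Their log2 folds of 1.12 and 1.08 were 0.91 and 0.87 with the median ratio set to 0, and 0.79 and 0.68 with 10 CPM added. First_Contig353, another glutamate carboxypeptidase and with 7702 bases the longest member, had 1688 reads in engorged and 908 in semi-engorged glands, a log2 fold of 0.76.

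Zinc carboxypeptidases were not called in 4 of 4 cases. Contig_3262, the carboxypeptidase with most reads, had 4428 in engorged and 7186 in semi-engorged glands, a log2 fold of -0.79 that reached -1.02 when the median ratio was set to 0. Contig_5490 had 1179 reads in engorged and 554 in semi-engorged glands, a log2 fold of 0.93. The 3 contigs named d-alanyl-d-alanine carboxypeptidase, after an enzyme of bacterial cell wall synthesis, share a tick best match and ran from -0.20 to 0.0081.

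Aminopeptidases had few calls, with 2 of 21 tested contigs (9.52%) higher in engorged glands and 1 (4.76%) in semi-engorged glands. Over all tested contigs these shares were 13% and 15.5%. The median log2 fold of the 21 was 0.030 (-0.20 to 0.19), and 7 of them were below 1 CPM in both libraries. Both Xaa-Pro aminopeptidases, which release a residue that precedes proline, were higher in engorged glands. Contig_7210 had 3393 reads in engorged and 1023 in semi-engorged glands (3.10-fold higher, 2.89 to 3.32). Contig_6609 had 1955 reads in engorged and 668 in semi-engorged glands (2.73-fold higher, 2.50 to 2.99). With 10 CPM added the log2 fold was 0.97 for contig_6609, short of a call, and 1.25 for contig_7210. They name different best matches, and their levels were 9.32 RPKM in engorged and 3.01 RPKM in semi-engorged glands for contig_7210 and 17.5 RPKM in engorged and 6.41 RPKM in semi-engorged glands for contig_6609.

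Leucine aminopeptidase contig_5159, matched to the enzyme of Haemaphysalis longicornis, had 2933 reads in engorged and 7958 in semi-engorged glands. It was 2.91-fold lower in engorged glands (2.79 to 3.03), at 27.9 RPKM in engorged and 81.2 RPKM in semi-engorged glands, and ranked 10 among members by RPKM in engorged and 3 in semi-engorged glands. The other leucine-type contigs stood close, with 2769 reads in engorged and 2932 in semi-engorged glands for contig_13687, of the M17 family of cytosolic leucine aminopeptidases, and 1690 in engorged and 1585 in semi-engorged glands for contig_3871.

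Methionine aminopeptidases, which remove the first methionine of new proteins, were not called in 4 of 4 cases. Contig_32 had 4648 reads in engorged and 8615 in semi-engorged glands. Its log2 fold of -0.98 lay just short of a call and reached -1.21 when the median ratio was set to 0. The other 3 ran from -0.73 to 0.50. Puromycin-sensitive aminopeptidases, cytosolic enzymes that trim many peptides, had 3978 reads in engorged and 3186 in semi-engorged glands for contig_4116 (log2 fold 0.22) and 1747 in engorged and 2317 in semi-engorged glands for contig_971 (-0.49).

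Aminopeptidase A is a membrane enzyme that in mammals trims angiotensin peptides. Most of its reads lay on contig_6879, of 3373 bases, and the rest on shorter contigs with few reads. With one glutamyl aminopeptidase, the group held 9 contigs with 564 reads in engorged and 582 in semi-engorged glands. Of 7 tested, 5 were below 1 CPM in both libraries and could not be called, and the other 2 were not called. The added 1 CPM also draws such low contigs towards a log2 fold of 0: contig_42912 had 15 reads in engorged and 24 in semi-engorged glands, a CPM ratio of 0.583 but a log2 fold of -0.20. The most abundant, contig_6879, had 414 reads in engorged and 444 in semi-engorged glands, a ratio of 0.870 (0.759 to 0.997).

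The called members nearest to the threshold were contig_14498 at a log2 fold of -1.08, contig_4040 at 1.08 and contig_4285 at 1.12, and those just short of it were contig_32 at -0.98, contig_10703, a serine carboxypeptidase, at 0.96 and contig_32890 at -0.94. For contig_32890 the added 1 CPM set this value, as its CPM was 9.49-fold lower in engorged glands. Of the 103 members, 10 had fewer than 20 reads and were not tested: 4 neprilysin or endothelin-converting contigs, 4 carboxypeptidases and 2 aminopeptidases.

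Related lists taken by name gave these values beside the members. Over all tested contigs, 13% were higher in engorged and 15.5% in semi-engorged glands. Of 5 other peptide-cutting enzymes, 0 were higher in engorged glands and 3 in semi-engorged glands, with a median log2 fold of -1.12. A thimet oligopeptidase (contig_11542), a zinc enzyme that cuts short peptides, had 2035 reads in engorged and 7245 in semi-engorged glands. A prolyl endopeptidase (First_Contig1071), which cuts after proline, had 2002 reads in engorged and 4626 in semi-engorged glands. Peptide hormone maturation enzymes (furin and the amidating enzyme) had 1 call higher in engorged and 0 in semi-engorged glands among 5, with a median of 0.26. The list of tolloid substrates and partners, collagens among them, had 5 higher in engorged and 3 in semi-engorged glands among 17, with a median of 0.46, although a collagen whose best match is a mammalian protein (contig_39977) had 2117 reads in engorged and 33034 in semi-engorged glands.

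The list of reprolysin-type metalloproteases was taken by words such as metalloprotease, metallopeptidase and reprolysin, which do not settle the family of each contig. It had 29 of 173 tested contigs (16.8%) higher in engorged and 80 (46.2%) in semi-engorged glands, beside 15.1% and 10.8% of the members. The median log2 fold of the 173 was -0.68 (-1.32 to -0.53), and this difference between the lists was not tested. The remaining peptidases (cathepsins, legumains and serine proteases) had 12 contigs higher in engorged and 6 in semi-engorged glands among 36, a median of 0.33 (-0.26 to 1.05), and were led by cathepsin L (contig_731), with 43640 reads in engorged and 9411 in semi-engorged glands.

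Some marker lists also differed between these libraries. Those of the gland, of midgut and cuticle and of host blood differed most in read share, and those of muscle, nerve, and haemocyte and fat body less. The counts below stand beside 13% of all tested contigs higher in engorged and 15.5% in semi-engorged glands. Of 374 tested contigs with salivary gland names, 74 were higher in engorged and 175 in semi-engorged glands, with summed read shares of 1.50% in engorged and 3.53% in semi-engorged glands. Of 36 muscle contigs 8 were higher in engorged and 9 in semi-engorged glands (0.0763% of engorged and 0.0689% of semi-engorged reads), and of 10 nerve contigs 1 and 2 (0.0896% engorged, 0.106% semi-engorged). Of 33 haemocyte and fat body contigs 3 were higher in engorged and 0 in semi-engorged glands (0.213% in each), and of 37 midgut and cuticle contigs 3 and 11 (0.0210% engorged, 0.0472% semi-engorged). Host blood names had 3 of 6 higher in engorged and 0 in semi-engorged glands (0.00496% engorged, 0.00308% semi-engorged). Without contig_10745, named an immunoglobulin binding protein, the shares were 0.00312% in engorged and 0.000716% in semi-engorged glands. Leaving this contig out was chosen after seeing the data. Contigs with 0 reads numbered 52 in engorged and 22 in semi-engorged glands of 379 gland names, 4 and 1 of 39 haemocyte and fat body names and 2 and 5 of 44 midgut and cuticle names, and the other lists had 0 such contigs. The part of these markers in the results was not tested, and fewer cells of a type and less RNA per cell cannot be told apart in whole glands.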

How the data were processed

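Salivary gland RNA was analysed from 1 library per stage. The authors deposited whole-number read counts and RPKM values (reads per kilobase of contig per 1000000 library reads) for 54357 assembled contigs, per the file headers. The submitters' processing notes list CASAVA 1.8, TopHat and Cufflinks without saying what each did, and the assembler was not given in the sources used here. Contig lengths were derived from counts and RPKM.

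Members were found by words in the best-match description. They and the related lists were chosen with earlier results of these data known, and names with "inhibitor" were dropped from the related lists after their matches were seen. Contigs with at least 20 reads over both libraries entered the comparison, called tested, which compares sizes only. Ratios have exact Clopper-Pearson 95% intervals and shares Wilson 95% intervals, and 0 reads were set to a floor of 3 reads per library. Reads carry no molecular identifiers, so intervals and floors cover counting error only. The rule for naming took, per class, the 3 most abundant members and, in each direction, the 2 called members with the largest fold and 100 reads or more on the higher side; other contigs were named after their values were seen. Alternatives changed the pseudocount (0.1 or 10 CPM in place of 1), the filter (none or 100 reads), the threshold, the scaling (TMM in edgeR 4.0.16, the median ratio, totals without the 50 most abundant contigs, RPKM) and the contigs kept. Calculations ran in Python 3.11.15 with scipy 1.17.1 and were tested on simulated counts.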

Additional observations from a re-analysis of the deposited data

How the results depend on the processing

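No paired analysis was possible because each stage has 1 library. The 14 members higher in the engorged and 10 higher in the semi-engorged library became 4 and 3 at a log2 threshold of 2 (3.68% and 6.72% of all tested contigs), 5 and 5 with 10 CPM added (4.21% and 5.23%), and 19 and 19 with 0.1 CPM added (22.8% and 31.3%). They became 22 and 19 when 3 reads stood in for 0 without a pseudocount (24.9% and 33.5% of all tested contigs), a setting chosen after seeing the data. With the median ratio set to 0 they were 12 and 16 (10.7% and 18.5%). With 1 contig per identical description they were 6 and 7 of only 55 tested members. Over all 40406 contigs tested in that setting the shares were 13.6% and 14.5%. Most of those contigs carry no description, so they are an unlike background for the members. Of the 24 calls, 14 were lost with 10 CPM added, 2 with the median ratio set to 0 and 4 with totals without the 50 most abundant contigs, and 0 changed sign under any setting run. The median log2 fold of 0.029 went to 0.16 with totals without the 50 most abundant contigs and to -0.13 with the median ratio set to 0. The ratio of read shares, 0.739, was 0.629 with the median ratio set to 0, 0.862 without the 50 most abundant contigs in the totals, 0.708 from RPKM, 0.901 without the most abundant member and 0.961 without both tick salivary dipeptidyl peptidase contigs, the last also chosen after seeing the data. Beyond the alternative's own construction, the cause was not tested. Leaving out the 2 members in the block of upper contig numbers, or matches outside arthropods, changed neither count. Members under 1 CPM in both libraries cannot be called with 1 CPM added, whatever the depth.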

Other observations

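A contig outside the name rule, contig_6016, carries the description "angiotensin ii" with no enzyme named. It had 1083 reads in engorged and 373 in semi-engorged glands, a log2 fold of 1.32. What protein it encodes is not known from the description.

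Of the 103 members, 3 had 0 reads in semi-engorged glands (contig_7716, contig_40625 and contig_585) and 2 had 0 in engorged glands (contig_54613 and contig_51977). The 2 with no engorged read lie among the 6017 contigs with the highest contig numbers, of which 65.7% had no engorged read. The 3 with no semi-engorged read lie outside that range. Because the start of the range was itself chosen from the contigs with 0 engorged reads, these positions are not a separate observation.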
